A study of Mus musculus with 14 samples.

Results

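The genes described here are 10 cardiac calcium handling genes, Atp2a2, Pln, Ryr2, Casq2, Slc8a1, Cacna1c, Trdn, Jph2, Camk2d and Hrc, chosen by name and matched through GENCODE M21 among the 54532 Ensembl genes counted in 14 mouse heart libraries. All 10 were present and all 10 passed the filter on low counts in both comparisons. Hearts of C57BL/6 mice, given as postnatal day 180 in the labels while the study's text gives an older age, were read with the Lexogen QuantSeq 3′ kit, which counts the 3′ ends of polyadenylated RNA. YG8-800 mice (n = 4) are homozygous for a null allele of a mouse gene and carry a human transgene, and their WT littermates (n = 4) carry neither. KIKO-700 mice, 3 males and 3 females, carry a changed copy and a deleted copy of an endogenous gene. The WT hearts of the KIKO-700 experiment were not analysed here, so for KIKO-700 the comparison was males against females, both with the same genotype. All alleles are constitutive, so every cell type of the heart carries them.

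In a cardiomyocyte, each beat begins with calcium entering through the L-type channel at the T-tubule and triggering release of a larger store from the sarcoplasmic reticulum. Relaxation follows as calcium is pumped back into the sarcoplasmic reticulum and extruded across the sarcolemma. The 10 genes cover those steps. Ryr2 encodes the release channel and Trdn triadin, which binds it. Casq2 encodes the store's calcium buffer calsequestrin and Hrc a second luminal calcium-binding protein. Atp2a2 encodes the pump SERCA2 and Pln its inhibitor phospholamban. Cacna1c encodes the pore of the L-type channel, Slc8a1 the sodium-calcium exchanger, Jph2 junctophilin-2, which holds the T-tubule and the sarcoplasmic reticulum together, and Camk2d a kinase that phosphorylates several of the others.

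The libraries held 5226233 to 11650840 counts, of which 28.9 to 44.6% came from genes of the mitochondrial genome. Each of the 13 ventricular cardiomyocyte markers had counts in all 4 groups. Values are CPM, read counts per 1000000 counts of the library, scaled by TMM within each experiment, so levels of the YG8-800 and KIKO-700 experiments are set side by side without a test, and genotype and experiment cannot be told apart between them. The labels give no sex for the YG8-800 experiment and the study describes male hearts, but YG8-800 replicates 1 and 3 and WT replicates 1, 2 and 4 had 32.5 to 60.2 CPM of Xist, the RNA of the inactive X chromosome, scaled here to the whole library, and the other 3 had at most 0.272.

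Where the genes lie is given in GRCm38. Atp2a2 is at chr5:122453513-122502225 on the minus strand, Pln at chr10:53337667-53345987 on the plus strand and Ryr2 at chr13:11553102-12106945 on the minus strand. Casq2 is at chr3:102086415-102146514 (plus), Trdn at chr10:33080554-33476709 (plus), Hrc at chr7:45335290-45338974 (plus) and Jph2 at chr2:163336242-163397993 (minus). Slc8a1 is at chr17:81373105-81738377 (minus), Cacna1c at chr6:118587240-119196418 (minus) and Camk2d at chr3:126596302-126846326 (plus). No member shared an exon with another gene on its own strand. Exons on the opposite strand overlapped Atp2a2, Pln and Slc8a1, and the partner with most counts, Cep85l beside Pln, had 711 counts over the 14 libraries, against 299294 for Pln.

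Promoters, 250 bases before to 50 after a RefSeq start in GRCm38.p6, were matched for 8 of the 10 genes (Atp2a2 and Trdn were not matched). The 4 printed below belong to Jph2, the member that differed most clearly, to Ryr2 and Camk2d, which stood high in the same pair of WT libraries, and to Pln, which did not. Capitals mark matches on either strand to 4 short motifs: the GC box is spelled GGGCGG, the CCAAT box is spelled as it is named, TATAAA is the core of a TATA box, and the form of the GATA-factor motif that was searched is AGATAA.
Jph2 promoter, chr2:163397944-163398243, minus strand: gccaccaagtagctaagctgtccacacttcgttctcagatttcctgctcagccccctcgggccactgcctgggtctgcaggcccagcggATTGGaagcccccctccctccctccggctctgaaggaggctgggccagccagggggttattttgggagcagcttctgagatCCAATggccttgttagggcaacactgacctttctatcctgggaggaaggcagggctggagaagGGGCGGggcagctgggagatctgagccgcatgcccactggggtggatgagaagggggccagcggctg
Ryr2 promoter, chr13:12106896-12107195, minus strand: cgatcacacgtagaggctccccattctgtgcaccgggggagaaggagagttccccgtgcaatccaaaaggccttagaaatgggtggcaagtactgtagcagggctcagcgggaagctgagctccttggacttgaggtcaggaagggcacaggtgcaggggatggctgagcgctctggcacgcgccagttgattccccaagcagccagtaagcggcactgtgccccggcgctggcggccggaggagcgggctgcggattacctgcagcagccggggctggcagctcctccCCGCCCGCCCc
Camk2d promoter, chr3:126596701-126597000, plus strand: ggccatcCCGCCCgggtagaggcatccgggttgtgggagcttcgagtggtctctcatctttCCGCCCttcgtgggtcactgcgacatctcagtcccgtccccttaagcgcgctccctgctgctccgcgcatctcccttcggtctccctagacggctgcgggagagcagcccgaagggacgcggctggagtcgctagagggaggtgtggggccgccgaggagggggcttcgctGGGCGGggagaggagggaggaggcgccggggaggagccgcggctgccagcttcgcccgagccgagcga
Pln promoter, chr10:53337436-53337735, plus strand: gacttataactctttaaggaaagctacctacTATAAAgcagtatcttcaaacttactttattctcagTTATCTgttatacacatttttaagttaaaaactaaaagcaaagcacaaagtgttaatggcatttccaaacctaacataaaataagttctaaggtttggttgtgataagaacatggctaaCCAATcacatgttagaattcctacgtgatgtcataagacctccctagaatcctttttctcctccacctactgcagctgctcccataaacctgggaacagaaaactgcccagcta

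The Pln window was 36.0% G and C, against 63.0% for Jph2, 65.3% for Ryr2 and 70.3% for Camk2d, and a median of 52.7% over all 32851 promoters. The 2 GC boxes of Ryr2 overlapped each other. The 8 genes had 11 promoters, and a gene counted if any of its promoters matched, whereas the shares of all promoters count single promoters. The units therefore differ. GGGCGG was found in a promoter of 5 of the 8 genes, against 35.7% of all promoters, and CCAAT in 4 of the 8, against 37.4%. TATAAA was found in 1 of the 8, Pln, against 13.6% of all promoters, and AGATAA in 2 of the 8, Pln and Slc8a1, against 11.2%. CACGTG (7.15% of all promoters), the MEF2 motif (0.557%) and the CArG box (1.63%) were matched in none of these windows. These matches are descriptions of the windows alone.

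Between YG8-800 and WT hearts, Jph2 was the one member whose groups did not overlap. It counted 19.5, 30.4, 28.8 and 26.8 CPM in YG8-800 hearts, against 54.5, 37.4, 32.8 and 58.1 CPM in WT hearts. The highest YG8-800 library therefore lay below the lowest WT library, and the means were 26.4 ± 4.83 CPM in YG8-800 and 45.7 ± 12.4 CPM in WT hearts (SD, n = 4 each). The log2 difference was -0.79 ± 0.26 (SE), with an unadjusted p of 0.00874 by edgeR's quasi-likelihood test. It did not pass the correction over all genes, with an adjusted p of 0.786. With sex, read from Xist, as a covariate, the log2 difference was -0.76 and the adjusted p 0.785 by edgeR.

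That call has to be read against the background of the comparison. Of 11875 genes tested, 718 (6.05%) had an unadjusted p under 0.05, 361 higher (3.04%) and 357 lower (3.01%) in YG8-800 hearts, and 436 (3.67%) had groups that did not overlap. After adjustment edgeR called 0 genes (0%), DESeq2 called 7 and limma-voom 0. Among the 10 members, 0 lay higher and 1 lower by that unadjusted threshold, and 0 passed after adjustment. Their median log2 difference was -0.34, against -0.0056 over all genes tested. The balance of directions depended on the scaling and on the tool. Of the 718 genes, 50.3% were higher in YG8-800 hearts. The share was 20.2% of 846 when counts were scaled by library size alone, which put the median of all genes at -0.21. With limma-voom, which used TMM factors as edgeR did, the share was 65.6% of 1009. Scaled by library size alone, Pln, Trdn, Slc8a1 and Hrc had negative log2 differences that still lay above that median, and Jph2, Ryr2, Atp2a2 and Casq2 had unadjusted p-values of 0.00807, 0.0444, 0.0468 and 0.0392.

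The release channel and its partners did not move as a block. Ryr2 counted 237, 185, 301 and 241 CPM in YG8-800 hearts, against 751, 409, 201 and 197 CPM in WT hearts, so WT replicates 1 and 2 lay above the YG8-800 range and replicates 3 and 4 within it. Its log2 difference was -0.69 ± 0.39 (SE; adjusted p = 0.839, edgeR). Trdn counted 621, 625, 539 and 597 CPM in YG8-800 hearts, against 498, 544, 650 and 473 CPM in WT hearts. Triadin RNA thus overlapped between the groups, with a log2 difference of 0.14 ± 0.25 (SE; adjusted p = 0.954, edgeR).

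The luminal buffers overlapped between the groups as well. Casq2 counted 321, 276, 386 and 317 CPM in YG8-800 hearts, against 563, 377, 340 and 455 CPM in WT hearts. Calsequestrin RNA was below every WT library in 3 of the 4 YG8-800 libraries, and the log2 difference of -0.42 ± 0.26 (SE) had an adjusted p of 0.849 by edgeR. Hrc counted 341, 284, 464 and 376 CPM in YG8-800 hearts, against 486, 265, 225 and 392 CPM in WT hearts. Its log2 difference was 0.10 ± 0.30 (SE; adjusted p = 0.978, edgeR), and the WT libraries held both the highest and the lowest value.

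For the pump and its inhibitor the WT hearts spread more widely than the YG8-800 hearts. Atp2a2 counted 1605, 1945, 1814 and 1527 CPM in YG8-800 hearts, against 3803, 3546, 1434 and 1601 CPM in WT hearts. WT replicates 1 and 2 were far above all YG8-800 libraries and WT replicates 3 and 4 were within or below them, so the log2 difference of -0.59 ± 0.35 (SE) had an adjusted p of 0.846 by edgeR. Pln counted 3074, 3417, 2847 and 2857 CPM in YG8-800 hearts, against 1965, 2701, 4111 and 2688 CPM in WT hearts. Phospholamban RNA was lowest and highest in WT libraries, and its log2 difference was 0.09 ± 0.30 (SE; adjusted p = 0.981, edgeR).

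**Figure D1:**
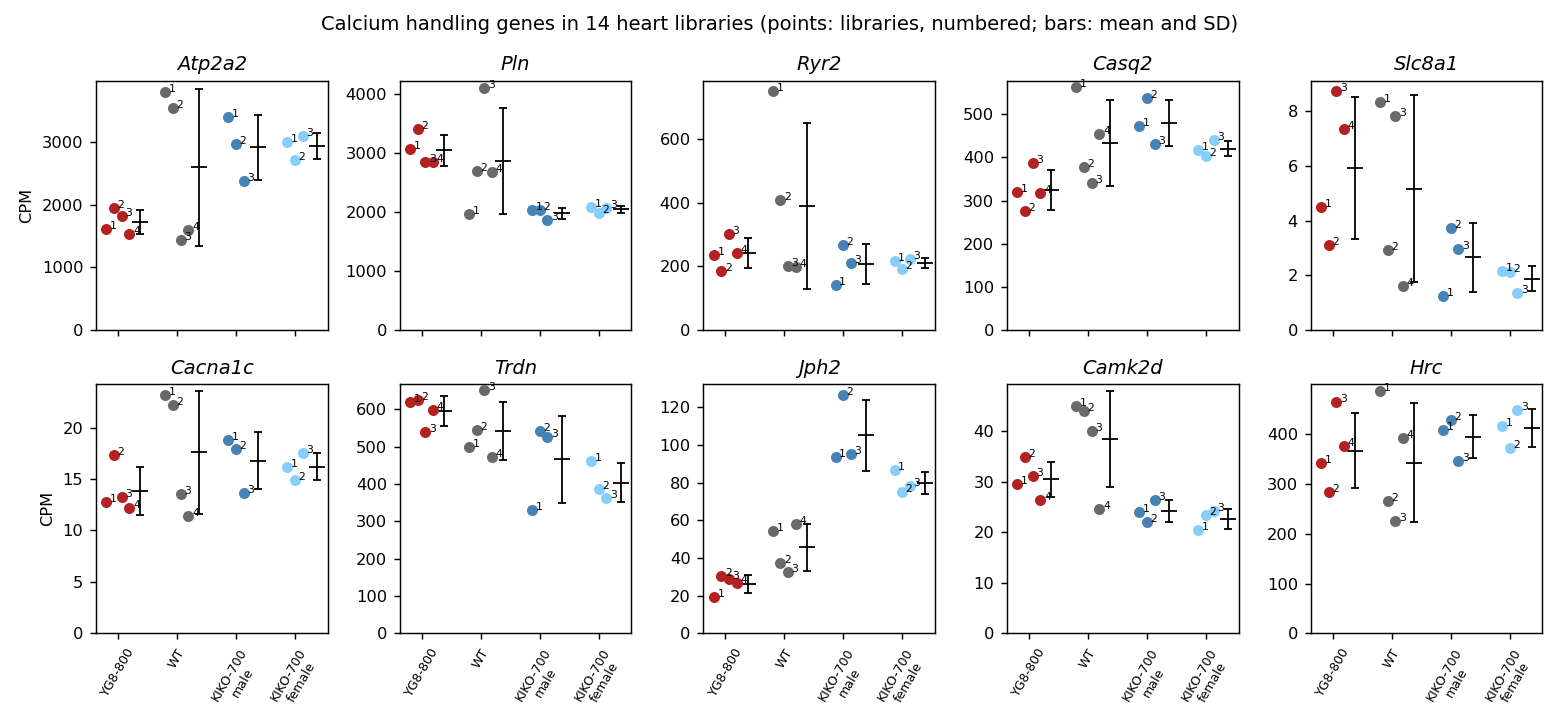
CPM (vertical axes, linear, from 0) of the 10 genes in each heart library, with YG8-800, WT, KIKO-700 male and KIKO-700 female groups from left to right; points are libraries numbered by replicate, and the bar beside each group is its mean and SD. Jph2 separates YG8-800 (19.5 to 30.4 CPM) from WT (32.8 to 58.1 CPM), while Atp2a2 and Ryr2 in WT hearts split between replicates 1 and 2 and replicates 3 and 4.

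At the sarcolemma, Cacna1c counted 12.7, 17.3, 13.3 and 12.1 CPM in YG8-800 hearts, against 23.2, 22.2, 13.6 and 11.4 CPM in WT hearts. RNA of the pore subunit of the L-type channel was highest in WT replicates 1 and 2, with a log2 difference of -0.35 ± 0.28 (SE; adjusted p = 0.885, edgeR). Slc8a1 counted 4.50, 3.10, 8.74 and 7.38 CPM in YG8-800 hearts, against 8.34, 2.93, 7.84 and 1.61 CPM in WT hearts. The exchanger had only 488 counts over all 14 libraries, between 10 and 87 in each, and its log2 difference of 0.20 ± 0.49 (SE; adjusted p = 0.967, edgeR) carries the largest error of the 10.

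Camk2d, the main cardiac isoform gene of the calcium- and calmodulin-dependent kinase II family, counted 29.5, 34.9, 31.2 and 26.5 CPM in YG8-800 hearts, against 45.1, 43.9, 40.0 and 24.5 CPM in WT hearts. In 3 of the 4 WT libraries the kinase RNA was above every YG8-800 library, and WT replicate 4 was below all of them. The log2 difference was -0.33 ± 0.25 (SE; adjusted p = 0.879, edgeR).

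**Figure D2:**
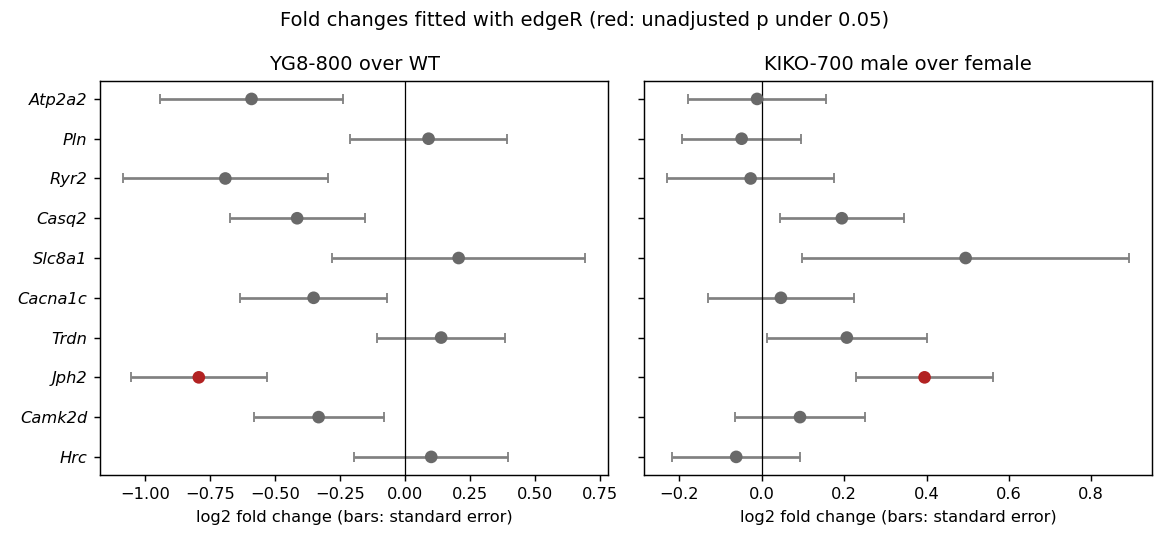
Log2 fold change (horizontal axes, different ranges) of the 10 genes, YG8-800 over WT on the left and KIKO-700 male over female on the right, fitted with edgeR; bars are standard errors and red marks an unadjusted p under 0.05. Jph2 is the one red point in each panel, at -0.79 on the left and 0.40 on the right.

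Atp2a2, Ryr2, Cacna1c and Camk2d, 4 of the 10 members, shared a library pattern: WT replicates 1 and 2 both lay above the other 6 libraries of the experiment. Over all genes tested, 791 of 11875 (6.66%) had that order. The reverse order, with WT replicates 1 and 2 both below the other 6 libraries, was found in 708 genes (5.96%) and in 0 members. The pair of libraries was picked after the values had been seen, so setting the members beside all genes is no test. Averaged over WT replicates 1 and 2, Ryr2 was at 580 CPM, against 227 CPM over the other 6 libraries, and Atp2a2 at 3675 CPM, against 1654 CPM. Cacna1c was at 22.7 CPM, against 13.4 CPM, and Camk2d at 44.5 CPM, against 31.1 CPM. Pln ran the other way, at 2333 CPM, against 3166 CPM in the other 6 libraries. Jph2 was not among the 4, because WT replicate 4 had its highest value.

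The 4 genes also shared a feature that did not enter the choice of members, a long annotated exon sequence. Atp2a2 has 6081 exon bases, Cacna1c 21191, Camk2d 22493 and Ryr2 28790, while Hrc has 2566, Casq2 2736, Pln 2759 and Jph2 4255. Trdn (9352 exon bases) and Slc8a1 (18807) are long and did not show the order. Over all genes tested, the order was found in 14.7% of the 3709 genes with over 6000 exon bases, in 4.89% of the 4191 genes with 3000 to 6000 and in 1.06% of the 3968 genes with fewer than 3000. The summed CPM of 8 adipocyte markers moved in the same libraries. It was 168 and 231 in WT replicates 1 and 2, against 13.4 to 38.9 in YG8-800 libraries and 10.4 and 53.4 in WT replicates 3 and 4. Of the 8 markers, 6 or 7 had counts in each YG8-800 library and 7 or 8 in each WT library. Lep, a defining adipocyte gene, was at 0 in all YG8-800 libraries. The summed CPM of the 13 ventricular cardiomyocyte markers ranged over 37370 to 59904 in YG8-800 and 28638 to 60968 in WT hearts. The part of adipose RNA or transcript length in these values was not tested, and in bulk hearts fewer cells of a type and less RNA per cell cannot be told apart.

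Without WT replicates 1 and 2, a choice made after seeing the values, Jph2 kept its log2 difference, at -0.79 with an unadjusted p of 0.0217 and an adjusted p of 0.998 by edgeR. The signs of Atp2a2 (0.19), Ryr2 (0.28) and Cacna1c (0.16) turned positive and that of Pln (-0.15) negative. Both libraries left out had the highest Atp2a2, Ryr2 and Cacna1c values of the experiment, so leaving them out was bound to raise those differences. No conclusion is drawn from these signs. Pln also turned negative without WT replicate 1 alone (-0.054) and with scaling by library size alone (-0.048). Over all 20 alternatives run, Jph2 was lower in YG8-800 hearts every time, between -0.98 and -0.66 on the log2 scale, and had an unadjusted p under 0.05 in all 20, while its lowest adjusted p was 0.200.

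**Figure D3:**
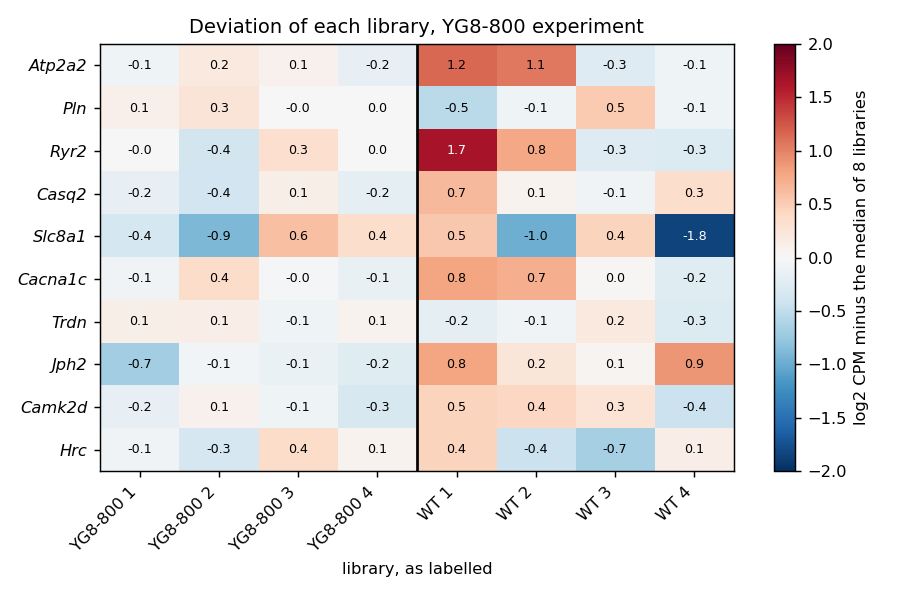
Each cell gives log2 CPM of a gene (rows) in one library (columns, YG8-800 left of the line and WT right of it) minus the median of the 8 libraries; red is above and blue below. WT replicates 1 and 2 are red for Atp2a2, Ryr2, Cacna1c and Camk2d. Jph2 is red or near 0 in WT and blue or near 0 in YG8-800, and the most negative cell is Slc8a1 in WT replicate 4.

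The spread itself differed by group. Over the 10 members the coefficient of variation had a median of 15.5% in YG8-800 hearts (6.64 to 43.5%) and 32.7% in WT hearts (14.5 to 67.0%). In KIKO-700 hearts the median was 17.0% in males (4.94 to 48.0%) and 7.99% in females (2.59 to 24.5%). Ryr2 had the largest value in WT hearts, 67.0%, against 19.6% in YG8-800 hearts, and Atp2a2 had 48.2%, against 11.1% in YG8-800 hearts. The highest coefficient in YG8-800 hearts belonged to Slc8a1, the gene with the fewest counts. Differences between the groups in spread were not tested.

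In the KIKO-700 experiment Jph2 was again the member that stood apart. It counted 93.5, 127 and 95.2 CPM in males, against 86.6, 75.2 and 78.0 CPM in females, so the lowest male lay above the highest female. Means were 105 ± 18.7 CPM in males and 79.9 ± 5.93 CPM in females (SD, n = 3 each). The log2 difference was 0.40 ± 0.17 (SE), with an unadjusted p of 0.0320 and an adjusted p of 0.651 by edgeR. The summed CPM of the 8 adipocyte markers was 18.6 to 28.1 in males and 65.3 to 70.9 in females, and its part in the Jph2 values was not tested. Without KIKO-700 male replicate 1 the adjusted p was 0.0386, at a log2 difference of 0.47, but leaving out that library also raised the number of genes called at an adjusted p under 0.05 to 864, against 8 with it. Over all 16 alternatives run the log2 difference of Jph2 stayed positive, between 0.25 and 0.47, and had an unadjusted p under 0.05 in 10. By edgeR, the unadjusted p was 0.0540 when counts were scaled by library size alone, 0.0738 with the replicate block and 0.128 in a fit over all groups. It was 0.119 without female replicate 2, 0.0954 without female replicate 3 and 0.158 without male replicate 2.

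Of 11801 genes tested between KIKO-700 males and females, 8 (0.0678%) passed after adjustment. At an unadjusted p under 0.05 there were 843 (7.14%), 400 higher (3.39%) and 443 lower (3.75%) in males, and 1493 (12.7%) had groups that did not overlap. One member of 10 was higher, 0 were lower and 0 passed after adjustment, and 1 did not overlap. The members' median log2 difference was 0.07, against 0.0059 over all genes. A single member past the unadjusted threshold in each comparison is close to what those backgrounds give.

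The other 9 members overlapped between KIKO-700 males and females. Atp2a2 counted 3398, 2973 and 2373 CPM in males, against 3008, 2705 and 3101 CPM in females, a log2 difference of -0.01 ± 0.17 (SE; adjusted p = 0.993, edgeR). Pln counted 2035, 2030 and 1864 CPM in males, against 2081, 1984 and 2070 CPM in females, and its log2 difference of -0.05 ± 0.14 (SE) had an adjusted p of 0.976 by edgeR. Both genes of the pump system thus lay within the spread of the replicates. Ryr2 counted 143, 268 and 209 CPM in males, against 218, 192 and 223 CPM in females, a log2 difference of -0.03 ± 0.20 (SE; adjusted p = 0.991, edgeR). Male replicate 1 had the lowest Ryr2 of the 6, and also the lowest Trdn (331 CPM, against 541 and 525 in the other males and 362 to 461 in females) and Slc8a1 (1.25 CPM).

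Casq2 was at 432 to 538 CPM in males and 404 to 440 CPM in females, with a log2 difference of 0.19 ± 0.15 (SE; adjusted p = 0.862, edgeR). Trdn (0.21 ± 0.19) and Slc8a1 (0.49 ± 0.40) had positive estimates with adjusted p-values of 0.888 and 0.870. Cacna1c, at 13.7 to 18.8 CPM in males and 14.9 to 17.6 CPM in females, and Camk2d, at 22.1 to 26.4 CPM in males and 20.4 to 24.1 CPM in females, differed by 0.05 ± 0.18 and 0.09 ± 0.16 on the log2 scale (SE; adjusted p = 0.986 and 0.961, edgeR). Hrc was at 347 to 429 CPM in males and 372 to 448 CPM in females, a log2 difference of -0.06 ± 0.16 (SE; adjusted p = 0.971, edgeR).

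Across the 4 groups, with the scaling limit given above, Jph2 had an order in which no neighbours overlapped, as had 13 of the 11208 genes tested in both experiments (0.116%). The group means were 105 CPM in KIKO-700 males, 79.9 CPM in KIKO-700 females, 26.4 CPM in YG8-800 and 45.7 CPM in WT hearts. The summed CPM of 9 atrial markers was 2338 to 3172 in KIKO-700 and 329 to 1689 in the other hearts, and that of 5 red blood cell genes 14239 to 20582 in KIKO-700 and 1262 to 5209 in the other hearts. Camk2d ran differently, with means of 30.5 CPM in YG8-800 and 38.4 CPM in WT hearts, which overlapped, and 24.1 CPM in KIKO-700 males, which lay below every YG8-800 library, as 12% of those genes did. Casq2 was lowest in YG8-800 hearts (325 CPM), below every KIKO-700 female (mean 420 CPM), as 27.1% of those genes were. For Atp2a2, Pln, Ryr2, Slc8a1, Cacna1c, Trdn and Hrc each group overlapped its neighbours in the order of the means. Groups further apart in that order could separate. Every YG8-800 library was below every KIKO-700 library for Atp2a2 (1527 to 1945 CPM, against 2373 to 3398 CPM). For Pln every YG8-800 library was above every KIKO-700 library (2847 to 3417 CPM, against 1864 to 2081 CPM). For Slc8a1 and Trdn every YG8-800 library was above every KIKO-700 female, as was every WT library for Trdn. Atp2a2 thus fell under the 27.1% and Pln under the 12% given above.

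A ratio of 2 genes within a library depends little on the scaling. It enters only through the prior count of 2, scaled to the library size, that was added to each gene and matters for low counts. The ratio of Pln to Atp2a2 counts was 1.92, 1.76, 1.57 and 1.87 in YG8-800 hearts, against 0.517, 0.762, 2.87 and 1.68 in WT hearts. The YG8-800 hearts held a narrow range inside the WT range, and the log2 difference of 0.60 was within the spread (exact two-sided permutation p = 0.343, adjusted p = 0.514 over 3 ratios, n = 4 each). It was 0.20 without WT replicate 1 and 1.03 without WT replicate 3. In KIKO-700 hearts the ratio was 0.599, 0.683 and 0.785 in males, against 0.692, 0.733 and 0.667 in females, a log2 difference of -0.03 (exact permutation p = 0.900, adjusted 0.900, n = 3 each). All 6 KIKO-700 hearts and WT replicates 1 and 2 were below 1, and the other 6 hearts were above 1. The ratio is one of 3′ end counts and not of protein or of molecules.

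**Figure D4:**
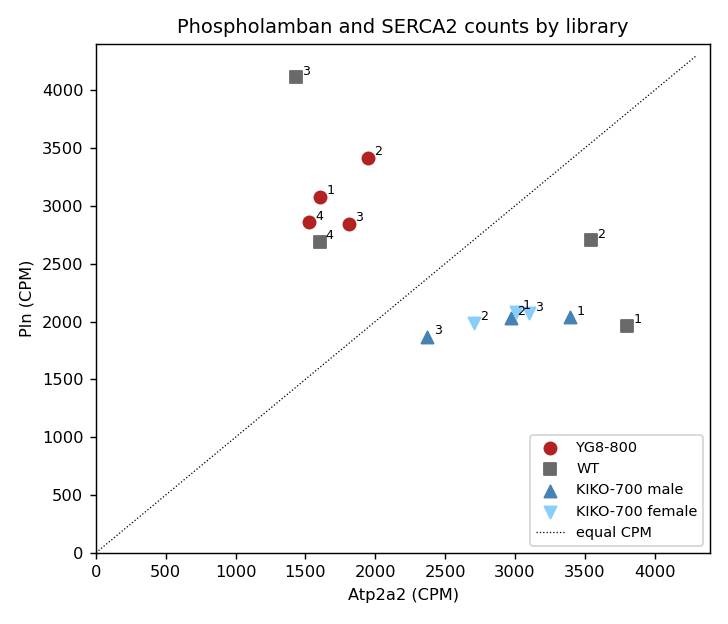
Pln CPM (vertical axis) against Atp2a2 CPM (horizontal axis) in the 14 libraries, numbered by replicate, with the dotted line at equal CPM. YG8-800 libraries and WT replicates 3 and 4 lie above the line, WT replicates 1 and 2 and all KIKO-700 libraries below it.

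The ratio of Slc8a1 to Atp2a2 counts differed by 0.82 on the log2 scale between YG8-800 and WT hearts (exact permutation p = 0.286, adjusted 0.514, n = 4 each), or by 0.45 without WT replicate 2 and 1.34 without WT replicate 3, and by 0.39 between KIKO-700 males and females (exact permutation p = 0.60, adjusted 0.900, n = 3 each). From raw counts with 0.5 added, the YG8-800 to WT difference was 0.84 (exact permutation p = 0.314) and the KIKO-700 difference 0.41 (exact permutation p = 0.60). The ratio of Casq2 to Ryr2, the buffer to the channel, was 1.28 to 1.49 in YG8-800 hearts and 0.750 to 2.31 in WT hearts, a log2 difference of 0.08 (exact permutation p = 0.857, adjusted 0.857, n = 4 each). KIKO-700 male replicate 1 had the highest Casq2 to Ryr2 ratio of all libraries, 3.31, against 2.00 and 2.06 in the other males and 1.92 to 2.11 in females (log2 difference 0.26, exact permutation p = 0.400, adjusted 0.900, n = 3 each). With 4 hearts against 4 the smallest two-sided p is 0.0286, and with 3 against 3 it is 0.100.

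The wider calcium pathway was read from 5 lists of 111 genes in all. Between YG8-800 and WT hearts 91 were tested, of which 2 lay higher and 2 lower in YG8-800 hearts (unadjusted p under 0.05) and 0 passed after adjustment, with a median log2 difference of -0.05. Those 4 are 4.40% of the genes tested, against 6.05% of all genes, and 3 of the 91 (3.30%) had groups that did not overlap, against 3.67% of all genes. The genes named next are to be read against those shares. In the list of release and the dyad, the junction of T-tubule and sarcoplasmic reticulum, 2 of 21 were higher and 1 lower. That list also holds Myzap, a gene of the intercalated disc rather than of that junction. Both directions occurred among the calmodulin genes. Calm3 counted 52.7, 63.5, 48.9 and 64.8 CPM in YG8-800 hearts, against 71.1, 79.9, 113 and 91.5 CPM in WT hearts, with no overlap. Its log2 difference was -0.63 ± 0.24 (SE; edgeR, adjusted p = 0.787, unadjusted 0.0198). Calm2, named here after its values were seen, counted 94.1, 96.0, 99.1 and 100.1 CPM in YG8-800 hearts, against 69.4, 70.2, 61.0 and 80.3 CPM in WT hearts, higher with no overlap. Its log2 difference was 0.47 ± 0.22 (SE; edgeR, adjusted p = 0.819, unadjusted 0.0485). Myzap, an intercalated disc protein gene, counted 111, 108, 128 and 112 CPM in YG8-800 hearts, against 62.1, 102, 76.7 and 77.9 CPM in WT hearts, also with no overlap (log2 difference 0.52 ± 0.24, SE; edgeR, adjusted p = 0.816, unadjusted 0.0440). Of 20 alternatives, an unadjusted p under 0.05 was found in 17 for Calm3, 7 for Calm2 and 8 for Myzap. Scaled by library size alone, the log2 difference was 0.27 for Calm2 (unadjusted p = 0.354) and 0.31 for Myzap (unadjusted p = 0.306).

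In the list of calcium and beta-adrenergic signalling 0 of 25 were higher and 1 was lower, Ppp3cb, a catalytic subunit gene of calcineurin, at 16.8 ± 2.29 CPM in YG8-800 and 24.5 ± 5.13 CPM in WT hearts (SD, n = 4 each; log2 difference -0.55 ± 0.25, SE; adjusted p = 0.816, edgeR). It had an unadjusted p under 0.05 in 12 of the 20 alternatives, and its log2 difference was -0.29 without WT replicates 1 and 2. Bves of the same list had a log2 difference of -0.56 (adjusted p = 0.830). No gene of the other lists had an unadjusted p under 0.05: 14 genes of uptake and its regulators, 16 of sarcolemmal entry and export and 15 of mitochondrial calcium. Of the genes with the smallest p in each, those of uptake were Atp2a3, the SERCA3 gene, at -0.85, and Gm34302, listed by RefSeq as Strit1, a micropeptide activator of SERCA, at 0.59 on the log2 scale. Those of entry and export were Atp2b1, a plasma membrane calcium pump gene, at -0.52 and Ahnak at -0.34, and among mitochondrial genes Vdac3, a channel of the outer membrane, was at 0.22. Gm34302 was at 50.5 CPM in WT replicate 1, against 167 to 273 CPM in YG8-800 hearts and 126 to 212 CPM in the other WT hearts.

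Between KIKO-700 males and females 96 pathway genes were tested, of which 4 lay higher and 0 lower in males (unadjusted p under 0.05) and 0 passed after adjustment, with a median log2 difference of 0.03. Those 4 are 4.17% of the genes tested, against 7.14% of all genes, and 9 of the 96 (9.38%) had groups that did not overlap, against 12.7% of all genes. Cacnb1, a beta subunit gene of voltage-gated calcium channels, counted 3.64, 4.16 and 3.47 CPM in males, against 2.02, 2.24 and 2.01 CPM in females, with no overlap. Its log2 difference was 0.83 ± 0.27 (SE; edgeR, adjusted p = 0.555, unadjusted 0.00898). Fxyd1, which encodes phospholemman, a regulator of the sodium pump, counted 296, 365 and 244 CPM in males, against 234, 229 and 229 CPM in females (0.38 ± 0.17, SE; edgeR, adjusted p = 0.665, unadjusted 0.0384). Orai3, a store-operated channel gene, was at 18.9, 28.3 and 20.7 CPM in males, against 18.0, 14.4 and 15.8 CPM in females (0.49 ± 0.19, SE; edgeR, adjusted p = 0.633, unadjusted 0.0207).

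Camk1, a calmodulin-dependent kinase gene, was the fourth, at 81.2 ± 21.6 CPM in males and 55.5 ± 10.3 CPM in females (SD, n = 3 each; log2 difference 0.55, adjusted p = 0.633, edgeR), and its groups overlapped. Gnas of the same list had a log2 difference of 0.38 with an adjusted p of 0.697. Without KIKO-700 male replicate 1, Orai3 and Gnas had adjusted p-values of 0.0238 and 0.00762, in a fit that called 864 of 12245 genes (7.06%). Without male replicate 2 their log2 differences were 0.31 and 0.24, with unadjusted p-values of 0.120 and 0.221. Of 16 alternatives, an unadjusted p under 0.05 was found in 15 for Cacnb1, 14 for Camk1, 12 for Orai3, 9 for Fxyd1 and 5 for Gnas. The remaining genes by smallest p were Atp2a3 (0.46) and Tmem38b, a cation channel of the sarcoplasmic reticulum (0.50), Fkbp1b, a Ryr2-binding protein gene (-0.60), and Mcu, the pore of the mitochondrial uniporter (0.25), and Maip1 (0.24), none with an unadjusted p under 0.05.

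Genes whose log2 CPM moved most like Atp2a2 over the 14 libraries, after subtracting each group's mean, were Fhod3 (Pearson r 0.95), Dnm1l (0.94), Map3k20 (0.93), Acsl1 (0.93) and Tns1 (0.92). Among the members, Cacna1c was closest to Atp2a2 (0.93), and Pln ran opposite (-0.61). Without WT replicates 1 and 2, over 12 libraries, r was 0.91 for Fhod3, 0.85 for Dnm1l and 0.79 for Map3k20. It was 0.75 for Acsl1, 0.73 for Tns1, 0.78 for Cacna1c and 0.12 for Pln. Genes most like Ryr2 were Rbbp6 (0.96), Dsg2 (0.95), Kif1b (0.94), Ttn (0.94) and Dst (0.94). Over the 12 libraries r was 0.95 for Rbbp6, 0.79 for Dsg2, 0.77 for Kif1b, 0.77 for Ttn and 0.73 for Dst. Ryr2 and Atp2a2 had r = 0.73 over the 14 libraries and -0.32 over the 12. These correlations describe libraries that share depth and scaling, and the genes were picked as the highest among all, so no p is attached.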

How the data were processed

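The authors deposited whole-number counts of reads per Ensembl gene, 1 file per library. The study's methods name Rsubread featureCounts with stranded assignment, whereas in the submitters' processing notes the tools are HTSeq 0.6.1 and STAR 2.5.0a, on GRCm38.p6, and which of them made the files was not resolved. Of 54532 gene IDs, 54409 matched GENCODE M21 and 123 did not. Isoforms of a gene, those of Atp2a2 included, share 1 count. In R 4.3.3, edgeR 4.0.16 filtered low counts (filterByExpr), computed TMM factors and ran its quasi-likelihood test (robust option) for each comparison, with p-values adjusted after Benjamini and Hochberg over all genes tested (threshold 0.05). CPM are counts per 1000000 of the TMM-scaled library size. Ratios were tested by exact permutation with SciPy 1.17.1. On data simulated for the YG8-800 comparison (11875 genes), 14 of 100 genes changed by 1 on the log2 scale and 77 of 100 changed by 2 passed after adjustment. For KIKO-700 (11801 genes) these were 57 and 93 of 100. Among genes simulated without a change, 10 passed for YG8-800 and 14 for KIKO-700. Each gene was simulated independently, without deviations shared by many genes of a library, so these numbers need not hold for the real libraries. P-values measure the spread between hearts. Alternatives changed the scaling, the filter, the tool (limma-voom of limma 3.58.1, DESeq2 1.42.0), the model (replicate block, sex, one fit over 4 groups) and the libraries, each left out in turn. The members and gene lists were chosen with earlier results of these data known. The genes named are all members, the 2 genes of smallest p in each pathway list and the 5 genes most like Atp2a2 or Ryr2 with a mean of at least 10 CPM. The gene changed in the mutant lines and 1 gene that this rule picked from the mitochondrial calcium list are not reported here.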

Additional observations from a re-analysis of the deposited data

Results flagged for a closer look

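In all, 66 groups of 4 libraries, those of the members and named pathway genes among them, were searched for a single library far from the others. Of these, 1 stood out. Orai3, a store-operated calcium channel gene, counted 9.63 CPM in WT replicate 4, against 7.96, 8.03 and 8.05 CPM in the other WT hearts. The gap was 0.946 of the group's range, above Dixon's critical value for 4 samples. Chance marks about 1 in 20 such groups.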

How the results depend on the processing

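Jph2 kept its direction under every alternative run in both comparisons. For YG8-800 against WT, genes at an adjusted p under 0.05 numbered 107 with no filter on low counts, 7 with DESeq2, 1 in one fit over all 4 groups and 0 to 146 when single libraries were left out. At an unadjusted p under 0.05 they numbered 1727 with no filter, 1438 in the 4-group fit and 484 to 1695 with a library left out, both maxima without WT replicate 4. Members at an unadjusted p under 0.05 numbered 4 with library size alone, 3 with no filter, 3 in the 4-group fit and 1 to 4 with a library left out (4 without WT replicate 4, 3 without WT replicate 3). Library size alone reversed Pln (-0.048), Slc8a1 (-0.092), Trdn (-0.049) and Hrc (-0.15). Without WT replicates 1 and 2, chosen after seeing the data, Atp2a2 (0.19), Pln (-0.15), Ryr2 (0.28), Cacna1c (0.16) and Ahnak (0.034) reversed. With 1 library left out, the log2 differences ran from -0.054 to 0.30 for Pln, -0.084 to 0.58 for Slc8a1, -0.068 to 0.32 for Hrc and -0.18 to 0.37 for the Casq2 to Ryr2 ratio.

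For KIKO-700 males against females, adjusted calls numbered 105 with no filter, 2 with at least 10 counts in every library, 18 with DESeq2, 0 in the 4-group fit and 4 to 864 with a library left out. Unadjusted calls numbered 1475 with no filter, 186 in the 4-group fit and 460 to 2610 with a library left out, both maxima without male replicate 1. Members called unadjusted numbered 0 with library size alone, with the replicate block and in the 4-group fit, and 0 to 3 with a library left out (3, Jph2, Trdn and Slc8a1, without male replicate 1). Atp2a2 was at 0.0029 with no filter. With a library left out, log2 differences ran from -0.14 to 0.12 for Atp2a2, -0.25 to 0.18 for Ryr2, -0.052 to 0.18 for Cacna1c, -0.13 to 0.026 for Hrc and -0.12 to 0.071 for the Pln to Atp2a2 ratio. The causes were not tested.

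Deviations of samples with the same replicate number had correlations of -0.23, 0.25, -0.03 and 0.13 in the YG8-800 experiment and -0.16, -0.04 and -0.19 in KIKO-700. The labels give only the number, and these correlations, without a reference to set them against, cannot decide whether such hearts were paired. With the replicate block, 867 genes had an unadjusted p under 0.05 and 0 an adjusted one in the YG8-800 comparison, against 628 and 6 in KIKO-700. Slc8a1 has the fewest counts of the members, and WT replicate 3, at 5226233 counts, is the shallowest library.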
